A study of Mus musculus with 6 samples.

Results

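Among the 27998 genes of the deposited table of UMIs (unique molecular identifiers, each marking 1 captured RNA molecule), 8 were followed here: Piezo1, Piezo2, Asic1, Asic2, Asic3, Stoml3, Tmem120a and Tmem150c. They were taken by name, as a list of mechanically gated channels, acid-sensing channels and their partners. The rule used no measured value, but the list was chosen with earlier results of these data known. The series profiled single dorsal root ganglion neurons, the sensory neurons whose cell bodies lie beside the spinal cord, from 6 mice in 3 groups of 2, each with 1 female and 1 male. Mice 654 and 657 lacked Ttpa, the alpha-tocopherol transfer protein that keeps vitamin E in circulation, and were on a vitamin E deficient diet (Ttpa-/-, 6 months). Mice 670 and 671 had the same genotype and age and a supplemented diet. Mice 698 and 699 were Ttpa+/+ with a basal level of vitamin E, at 5 months, so that genotype, diet and age cannot be told apart in any comparison with them. The labels name no promoter or cell type for the deletion, and do not give the strain.

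PIEZO1 and PIEZO2 are large ion channels that open when the membrane is stretched. PIEZO2 is the main transducer of light touch and of the sense of limb position in sensory neurons, whereas PIEZO1 is best known from blood vessels and blood cells and has been linked to mechanical itch. The ASIC proteins (Asic1, Asic2, Asic3) form proton-gated sodium channels of 3 subunits that respond to acid in muscle, joints and inflamed tissue. Stoml3 encodes a stomatin-like membrane protein that tunes mechanically gated currents, and Tmem120a (TACAN) and Tmem150c (Tentonin 3) encode membrane proteins proposed as mechanosensitive channels or modulators, a role that has been disputed for both.

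Neurons were sorted into types in silico by marker genes that included none of the 8. A cell was gated to a type when its mean marker score passed a limit for that type and led that of every other type by a set margin, limits that were chosen after marker scores and clusters of these cells had been seen. This gave 9 types over 13142 of 20714 neurons (63.4%): Mrgprd (non-peptidergic nociceptors, 1832 cells), Mrgpra3 (itch neurons, 438), Sst (itch neurons with Nppb, 1746), Th (C-fibre low-threshold mechanoreceptors, 2753), peptidergic (4225), Pvalb (proprioceptor-type large neurons, 628), Ntrk2 (A-delta low-threshold mechanoreceptors, 603), Calb1 (A-beta neurons, 495), and large neurofilament-rich neurons that reached the limit of no other set (other NF, 422). The marker that names each gate was far higher inside it: Pvalb ranged from 2387 to 2920 CPM over the 6 mice in the Pvalb gate and from 3.72 to 12.04 in the other gates, and Sst from 1171 to 1569 against 0.211 to 1.26. The Mrgpra3 gate is the least certain, since 83.1% of its cells lay within 0.1 of a gate limit. CPM, the unit of all levels here, is the number of UMIs of a gene per 1000000 UMIs of all genes, summed over the cells of 1 mouse (and type), and levels of different genes are not compared with each other.

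Depth ranged from 11943102 to 18648951 UMIs over 2789 to 3842 neurons per mouse. The 10 pan-neuronal markers summed to between 12070 and 13180 CPM in the neurons of each mouse. The 7 satellite glia markers, all detected, summed to 307.5 to 777 CPM the 6 Schwann cell markers to 544 to 731 CPM and the 5 erythroid markers to 10.8 to 189.8 CPM; mice 654 and 670 held 116 and 162 cells with too few neuronal markers, against 2 to 16 in the others, and these cells were left out. In all, 261 cell barcodes occurred in 2 libraries. The part of these differences in the results below was not tested.

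Piezo2 was detected in every gated type, and its level differed widely between them. Over the 6 mice it was highest in the Th gate, where the lowest mouse had 807 CPM, the median was 903 and the highest had 1028 (mean 924 ± 81.6, SD, n = 6). The Ntrk2 gate followed at 631 ± 47.7, and no mouse of it reached any mouse of the Th gate. These are the C-fibre and A-delta neurons with lanceolate endings on hair follicles.

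The other large neurons came next, with 453 ± 55.8 CPM in other NF and 437 ± 68.8 in Calb1, whose ranges overlapped (SD, n = 6 mice each). Mrgprd at 290.04 ± 17.4 and Pvalb at 286 ± 29.6 overlapped as well. Below them stood peptidergic at 205 ± 20.7, Mrgpra3 at 97.6 ± 12.3 and Sst at 35.6 ± 6.82, each without overlap with its neighbours in this order. The Th mean was 26.0 times the Sst mean, and the Th gate held 45.4% of the gated Piezo2 UMIs with 19.4% of all gated UMIs.

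Each type was tested against the mean of the 8 others on the log scale, with the mouse as a block (edgeR quasi-likelihood test, Benjamini-Hochberg adjustment over all genes). Most genes differ between such types, and 62.9% of all gene-by-type tests passed 0.05. For the 8 genes it was 33 of 54, so passing is no mark of these genes. The 54 tests held none of Piezo1 or Stoml3, which did not pass the low-count filter. Of the 33, Asic1 gave 5 and Asic3 4, all as higher, and these calls depend on the reference. Against the pooled UMIs of the other types 37 of 55 tests of the 8 genes passed, beside 57.1% of all. Asic1 and Asic3 had no UMI in a pair of types, which makes the mean of logs depend on the prior count, and their differences are given against the pooled other types instead. Piezo2 was higher in Th by 2.11 ± 0.04 (log2 ± SE, adjusted p = 2.33e-66) and in Ntrk2 by 1.37 ± 0.05 (adjusted p = 1.5e-41), in 6 of 6 mice each. It was lower in Sst (-3.21 ± 0.09, adjusted p = 3.94e-55) and in Mrgpra3 (-1.52 ± 0.09, adjusted p = 2.56e-28). For Mrgprd and Calb1 the reference decided the sign. Mrgprd was above the mean of the other types (0.32 ± 0.05, adjusted p = 4.47e-08) and below their pooled UMIs (-0.29 ± 0.05, adjusted p = 7.75e-07). Calb1 went from 0.63 ± 0.06 to -0.02 ± 0.07 (adjusted p = 0.843). The sign stayed in other NF (0.82 and 0.19), peptidergic (-0.46 and -1.21) and Pvalb (-0.05 and -0.67). Pvalb was called lower only against the pooled UMIs (adjusted p = 1.13e-15) and with a stricter gate (-0.22, adjusted p = 0.00414). The pooled comparison was chosen after seeing the data, and 57.1% of all tests passed in it.

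Types hid further differences in Piezo2. When the peptidergic gate was split by its 3 marker sets, the cells led by Tac1 markers had 65.3 ± 5.94 CPM, those led by Chrna3 276 ± 33.9 and those led by Bmpr1b 284 ± 12.9 (SD, n = 6 mice). The Tac1-led cells of every mouse, 55.9 to 71.2 CPM, stood below all values of both other subsets, 214 to 312. In clusters built without the 8 genes, the pair led by Fam19a4, Zfp521 and Slc17a8 reached 1252 ± 94.5 (cluster 5) and 1227 ± 146 CPM (cluster 12), whereas cluster 3, led by Gm7271 and Th, had 659 ± 34.999. Cluster 3 overlapped cluster 13, led by Cadps2 and Ntrk2, at 656 ± 46.8, so not every Th cluster stood above the Ntrk2 cluster. Among clusters with at least 19 cells in every mouse the lowest were cluster 0, led by Adcyap1, Gal and Sstr2, at 22.0 ± 5.03 CPM, and cluster 19, led by Foxp2, at 2.81 ± 4.35 from 2 UMIs in all.

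**Figure D1:**
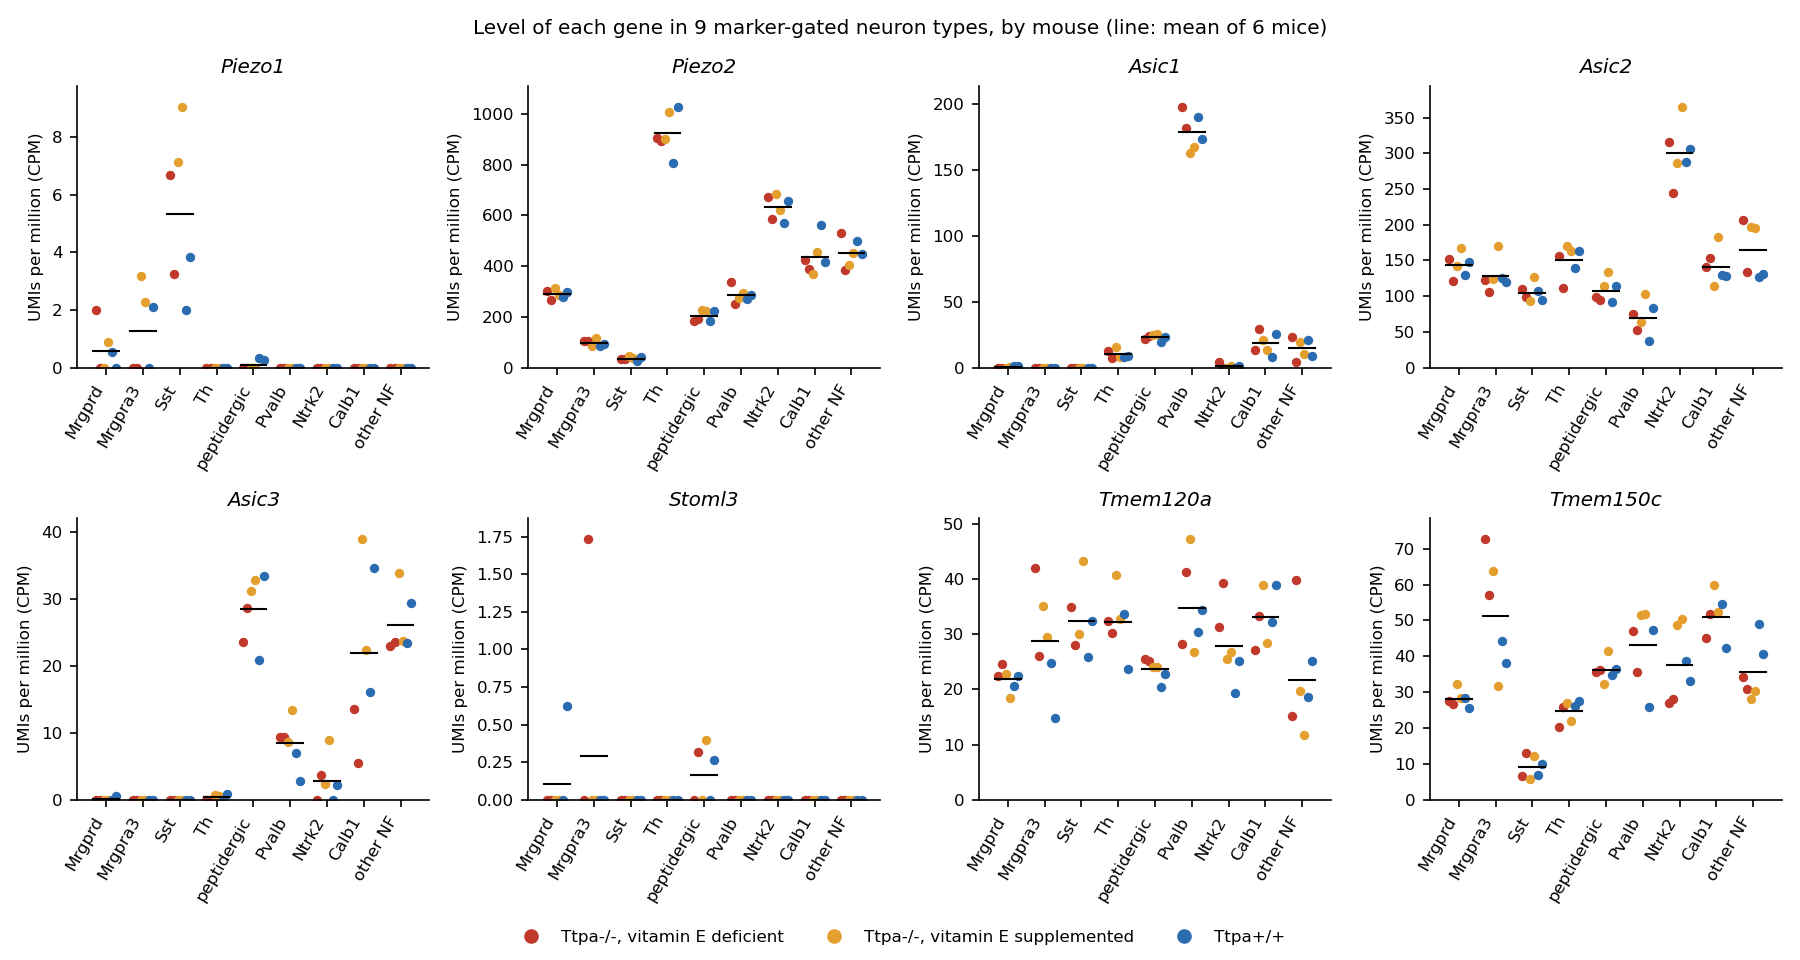
Level of each of the 8 genes (CPM, linear axis from 0) in the 9 gated neuron types. Each point is 1 mouse, coloured by group, and the line is the mean of 6 mice. Piezo2 runs from 35.6 in Sst to 924 in Th, Asic1 stands at 179 in Pvalb and no higher than 29.6 in any mouse of another type, and Tmem120a ranges only from 21.7 to 34.7 between type means.

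Piezo1 was close to the limit of detection, with 60 UMIs in all neurons of the 6 mice, and those UMIs were concentrated in 1 type. Of the 46 in gated cells, 33 (71.7%) were in the Sst gate, which held 9.95% of the gated UMIs. By mouse the Sst gate held 9 and 3 UMIs in the deficient mice, 5 and 9 in the supplemented and 2 and 5 in the wild-type mice. That is 2.00 to 9.06 CPM, a mean of 5.33 ± 2.71 (SD, n = 6), above 0 in every mouse.

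Elsewhere the count was 8 UMIs in Mrgprd, 3 in Mrgpra3 and 2 in peptidergic, with none in Th, Pvalb, Ntrk2, Calb1 or other NF. Pooled over mice the Sst level was 5.27 CPM (exact 95% Poisson interval 3.63 to 7.40) and the Mrgprd level 0.618 (0.267 to 1.22), intervals that cover counting error only. In Th the count of 0 has an upper limit of 0.302 CPM on the same interval. The Sst level was above that of the pooled other types in 6 of 6 mice. This is given without a test, since Piezo1 did not pass the low-count filter against the mean of the other types and against the pooled types passed it in Sst alone.

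Piezo1 lies on chromosome 8 (GRCm38, 122481698 to 122551329, minus strand). Near its 3' end it overlaps Ctu2, on the other strand, and Gm20388, whose level is not given here. No source used here says whether the counting used strand, so reads of that overlap may not be told apart. Ctu2, a tRNA modification enzyme, was found at 7.34 ± 1.79 CPM in Sst (SD, n = 6). In the 5 types in which Piezo1 had no UMI, Ctu2 stood at 11.4 ± 2.37 in Th, 5.32 ± 2.51 in Pvalb, 4.93 ± 2.05 in Ntrk2, 3.14 ± 2.02 in Calb1 and 2.70 ± 2.83 in other NF. The part of the overlap in the Piezo1 counts was not tested.

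Asic1 was highest in large Pvalb neurons. In the Pvalb gate it stood at 198 and 182 CPM in the deficient mice, 163 and 167 in the supplemented and 190 and 173 in the wild type, a mean of 179 ± 13.4 (SD, n = 6). The next type, peptidergic, had 23.1 ± 2.13, and the highest single value outside the Pvalb gate was 29.6, in Calb1. The Pvalb gate was thus 7.75 times the next type on the ratio of means, and held 44.7% of gated Asic1 UMIs with 4.29% of all gated UMIs.

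Calb1 (18.5 ± 8.14 CPM), other NF (14.5 ± 7.69) and Th (9.99 ± 3.30) followed, with ranges that overlapped from one to the next. In Ntrk2 only 4 Asic1 UMIs were counted and in Mrgprd 5, in 3 of 6 mice each. Mrgpra3 and Sst held none in any mouse. With the floor at 3 UMIs over the 6 mice, Asic1 was at least 15.8-fold lower in Mrgpra3 and at least 38.6-fold lower in Sst than in the pooled other types. Pvalb exceeded the pooled other types by 4.002 ± 0.12 (log2 ± SE, adjusted p = 1.86e-130, edgeR) and peptidergic by 0.55 ± 0.11 (adjusted p = 5.54e-05), both in 6 of 6 mice. The p-values between types are moderated by the spread of all genes, so their size does not measure the agreement between mice.

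Among clusters, Asic1 was highest in cluster 10, led by Pvalb and with 85.3% of its cells in the Pvalb gate, at 186 ± 7.41 CPM (SD, n = 6). Cluster 16, led by Htr3a and Smr2 and with 83.1% of its cells in the peptidergic gate, had 109 ± 15.01. Cluster 19, led by Foxp2 and without a type name, had 142 ± 44.8 with 92.7 to 195 by mouse, from as few as 19 cells in a mouse. The 2 UMIs of Piezo2 in cluster 19 set it apart from cluster 10, where Piezo2 stood at 289 ± 37.9. The erythroid markers Hbb-bs and Hba-a1 were among the leading markers of cluster 19, and their part in its values was not tested.

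Asic3 was found in peptidergic and in some large neurons. The peptidergic gate had 28.4 ± 5.13 CPM, other NF 26.1 ± 4.48 and Calb1 21.9 ± 12.8 (SD, n = 6), in overlapping ranges. Pvalb stood at 8.44 ± 3.44 and Ntrk2 at 2.88 ± 3.30. Of the 661 gated UMIs 449 (67.9%) were peptidergic, a type with 24.8% of all gated UMIs. Only 4 UMIs were in Th and 1 in Mrgprd, and Mrgpra3 and Sst again held none, at least 9.69-fold and 23.6-fold lower than the pooled other types with the floor at 3 UMIs.

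Against the pooled other types Asic3 was higher in peptidergic by 2.63 ± 0.16 (log2 ± SE, adjusted p = 4.32e-15, edgeR), in other NF by 1.38 ± 0.20 (adjusted p = 1.15e-07) and in Calb1 by 0.97 ± 0.21 (adjusted p = 4.66e-05), in 6, 6 and 5 of 6 mice. Within the peptidergic gate the Chrna3-led cells had 42.1 ± 6.89 CPM, the Bmpr1b-led 31.3 ± 10.6 and the Tac1-led 9.65 ± 4.01 (SD, n = 6). The lowest mouse of the Chrna3-led cells, 33.3, was above the highest of the Tac1-led, 16.6. Among clusters the highest was number 16, at 63.5 ± 13.1, which was also high for Asic1.

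Asic1 and Asic3 therefore shared the 2 types in which neither was counted, Mrgpra3 and Sst, and differed in Pvalb. Their upstream sequences are shown for that reason. The windows are those RefSeq (GRCm38.p6) lists before each start, without any base that GENCODE M21 places in an exon, in the direction of the gene, with CG dinucleotides in capitals. Asic1 (chromosome 15, gene 99670368 to 99701130, plus strand) is shown over chr15:99691974-99692223, inside the longer GENCODE gene and outside its exons. Asic3 (chromosome 5, gene 24413392 to 24417835, plus strand) is shown over chr5:24413201-24413391.
Asic1: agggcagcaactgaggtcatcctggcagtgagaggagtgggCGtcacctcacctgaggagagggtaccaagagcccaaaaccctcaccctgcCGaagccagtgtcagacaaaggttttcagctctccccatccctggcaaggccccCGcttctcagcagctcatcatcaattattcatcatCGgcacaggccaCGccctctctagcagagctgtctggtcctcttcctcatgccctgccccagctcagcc
Asic3: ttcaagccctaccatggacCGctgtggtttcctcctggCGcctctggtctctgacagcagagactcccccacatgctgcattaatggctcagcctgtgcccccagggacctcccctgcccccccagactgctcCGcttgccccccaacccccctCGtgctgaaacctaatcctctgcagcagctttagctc
As printed, Asic1 holds 5 CG in 250 bases and Asic3 4 in 191. The whole 250-base windows hold 5 each, beside a median of 6 (quartiles 2 and 16) over 32851 mouse windows of that length, and those of Tmem120a and Piezo1 hold 27 and 26. The letters TGTGGT, on either strand, occur in the Asic3 window, in none of the other windows of the 8 genes, and in 14.0% of all windows; such a match is a description and not a site. A window was found for 7 of the 8 genes.

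Asic2 was broad. It was found in every gated type, highest in Ntrk2 at 301 ± 39.7 CPM (SD, n = 6; 245 to 365 by mouse) and lowest in Pvalb at 69.4 ± 23.3 (37.5 to 104). The Ntrk2 range stood clear of the next type, other NF, at 165 ± 38.3. From there the order ran through Th at 151 ± 21.8, Mrgprd at 143 ± 16.6, Calb1 at 141 ± 24.1, Mrgpra3 at 128 ± 21.8, peptidergic at 108 ± 16.1 and Sst at 105 ± 12.7, each overlapping its neighbour. The type that was highest for Asic1 was thus lowest for Asic2, and Asic1 had 4 UMIs in the type that was highest for Asic2. Ntrk2 was above the mean of the other types by 1.27 ± 0.06 (log2 ± SE, adjusted p = 6.57e-34, edgeR) in 6 of 6 mice, and Pvalb below it by 1.19 (-1.19 ± 0.10, adjusted p = 4.06e-19) in 6 of 6.

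Stoml3 could not be followed. It gave 7 UMIs in all neurons, 3 in mouse 657, 1 in 671, 3 in 699 and none in 654, 670 and 698. Of these, 3 were in peptidergic cells, 1 in Mrgprd and 1 in Mrgpra3. With the floor at 3 UMIs, the mice without a UMI, 654, 670 and 698, had floors of 0.227, 0.251 and 0.177 CPM. The gene was thus not measurable at this depth. It did not pass the low-count filter of any test reported here, and with no filter it was not called in any type or contrast.

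Tmem120a was the most even of the 8. Its type means ran from 21.7 ± 9.92 CPM in other NF to 34.7 ± 8.04 in Pvalb (SD, n = 6), a ratio of 1.60, and every type overlapped its neighbours in the order. Against the mean of the other types it was higher in Th (0.28 ± 0.10, adjusted p = 0.00625, edgeR) and Sst (0.30 ± 0.12, adjusted p = 0.0192) and lower in peptidergic (-0.34 ± 0.10, adjusted p = 0.00145) and Mrgprd (-0.25 ± 0.10, adjusted p = 0.0258). Of these 4 calls 3 were lost in some settings. The Mrgprd difference did not pass against the pooled other types (adjusted p = 0.149), with a stricter gate (0.296), with no low-count filter (0.123) or without mouse 657, 670 or 671, the Sst difference (0.17) without mouse 671, and the Th difference with a stricter gate (0.19, adjusted p = 0.0886) or without mouse 670 (0.22) or 698 (0.20).

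Tmem150c was present in all types and low in Sst. The Sst gate had 9.08 ± 3.05 CPM (5.72 to 13.0 by mouse), below every mouse of every other type; the next, Th, was at 24.8 ± 2.89 (SD, n = 6). The highest were Mrgpra3 at 51.3 ± 15.8 and Calb1 at 51.0 ± 6.33. Sst was below the mean of the other types (-1.948 ± 0.16, log2 ± SE, adjusted p = 3.26e-20, edgeR) in 6 of 6 mice, and Mrgpra3 above it (0.825 ± 0.14, adjusted p = 4.69e-07) in 5 of 6 and Calb1 (0.54 ± 0.13, adjusted p = 0.000153) in 6 of 6. Cluster 0, the Adcyap1-led cells that were low for Piezo2, had 6.24 ± 2.84 CPM, and cluster 6, also led by Gal and Adcyap1 with Chrna3, had 57.0 ± 8.95. The antisense gene Tmem150cos overlaps 17312 bases at the 3' end of Tmem150c (GRCm38 chromosome 5, 100077872 to 100159808) and had 0 UMIs in the 9 gates.

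**Figure D2:**
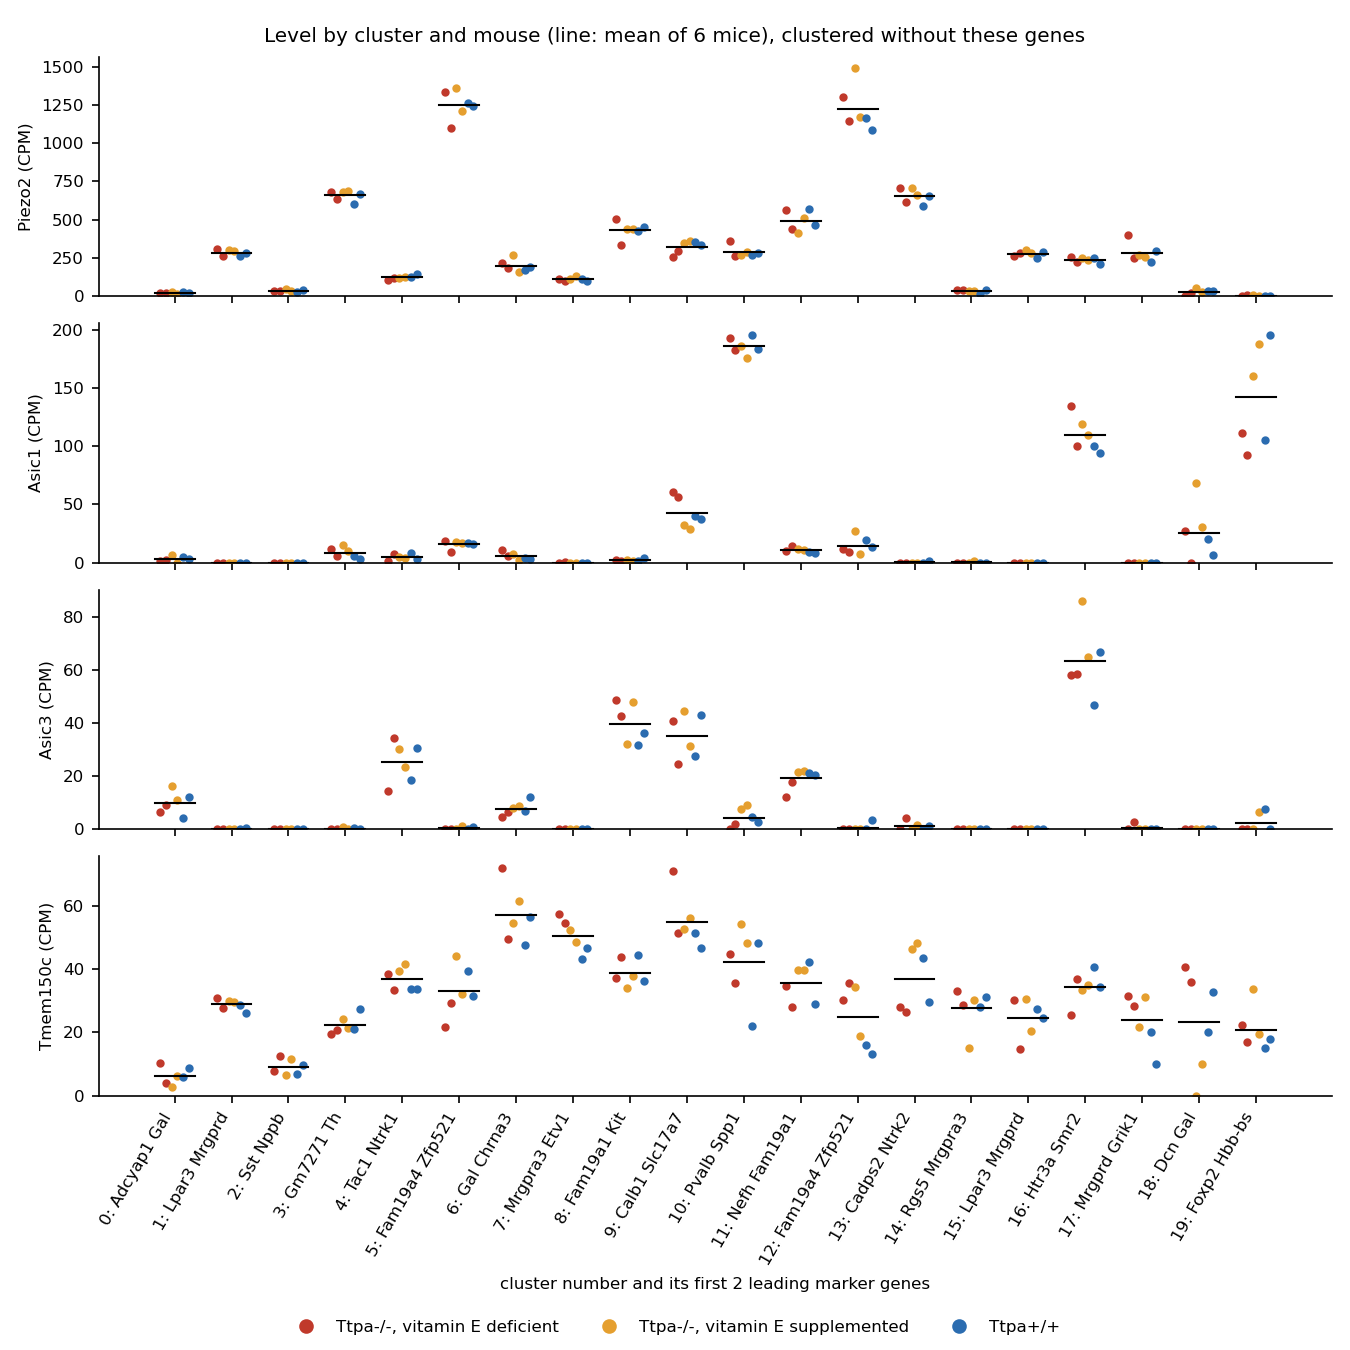
Level (CPM, linear axes from 0) of Piezo2, Asic1, Asic3 and Tmem150c in the clusters with at least 19 cells in every mouse, which were built without the 8 genes. Each point is 1 mouse, coloured by group, and the line is the mean of 6 mice. Asic1 peaks in clusters 10, 19 and 16, Asic3 in cluster 16 and Piezo2 in clusters 5 and 12.

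The genes whose type means followed each gene most closely were named by Pearson correlation of log2(CPM + 5) over the 9 types, among 7851 genes with at least 20 CPM in 1 type. Over so few points high values are common, so they are given as a description. Piezo2 was followed by Cdk7 (r = 0.980), Rnf219 and Actr10, Asic1 by Kndc1 (0.952), Clic4 and Napb, and Asic2 by Cox17 (0.929), Hspe1 and Lman1. Asic3 was followed by Sema5a (0.987), Elfn1 and Cgnl1, Tmem120a by Lin54 (0.883), Inafm1 and Atxn1, and Tmem150c by Igbp1 (0.955), Memo1 and Dnaja1. Among the 6 genes themselves the highest value was 0.591, for Asic1 with Asic3, and the lowest -0.576, for Asic1 with Asic2, over types that share libraries.

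The question of the design was whether vitamin E status altered these neurons, and over all neurons none of the 7 testable genes passed a test between groups. In a bulk sum over neurons, fewer cells of a type and less RNA per cell cannot be told apart. The Mrgprd gate held 11.7% and 9.11% of the neurons in the deficient mice, 11.4% and 8.40% in the supplemented and 6.39% and 5.40% in the wild type, and the part of this in the sums was not tested. Piezo2 stood at 363 and 336 CPM in the deficient mice, 365 and 362 in the supplemented and 338 and 376 in the wild type. The groups overlapped, and the log2 difference of deficient against wild type was -0.04 (95% interval -0.32 to 0.24), of supplemented against wild type -0.01 (-0.29 to 0.27). Tmem150c was as level, with 29.8 and 30.8, then 31.2 and 33.5, then 29.1 and 31.5 CPM, and a deficient against wild-type difference of -0.01 (-0.30 to 0.28).

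Asic3 varied between the mice of a group. It was at 5.38 and 9.65 CPM in the deficient mice, 10.0 and 11.0 in the supplemented and 6.80 and 14.2 in the wild type. The deficient mice were both below the supplemented ones, and the wild-type mice lay on both sides. The deficient against wild-type difference was -0.47 ± 0.32 (log2 ± SE, 95% interval -1.17 to 0.22, adjusted p = 0.992, edgeR), and without mouse 699 it was 0.16.

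Asic1 was at 11.5 and 15.8 CPM in the deficient mice, 14.8 and 17.2 in the supplemented and 14.3 and 19.0 in the wild type, in overlapping ranges (deficient against wild type -0.29 ± 0.19, log2 ± SE, adjusted p = 0.992, edgeR). Asic2 was at 142 and 114, then 141 and 158, then 121 and 136 CPM. Both supplemented mice were above both wild-type mice, by 0.19 (95% interval -0.11 to 0.49, adjusted p = 1.0). Tmem120a was at 28.0 and 28.2, then 27.5 and 24.6, then 24.8 and 25.6 CPM, with both deficient mice above all others by small steps (deficient against wild type 0.145 ± 0.13, adjusted p = 0.992). Piezo1, on 5 to 17 UMIs a mouse, was at 1.29 and 0.282, then 0.586 and 0.930, then 0.296 and 0.590 CPM, and the interval of its deficient against wild-type difference ran from -0.78 to 2.16 on the log2 scale.

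**Figure D3:**
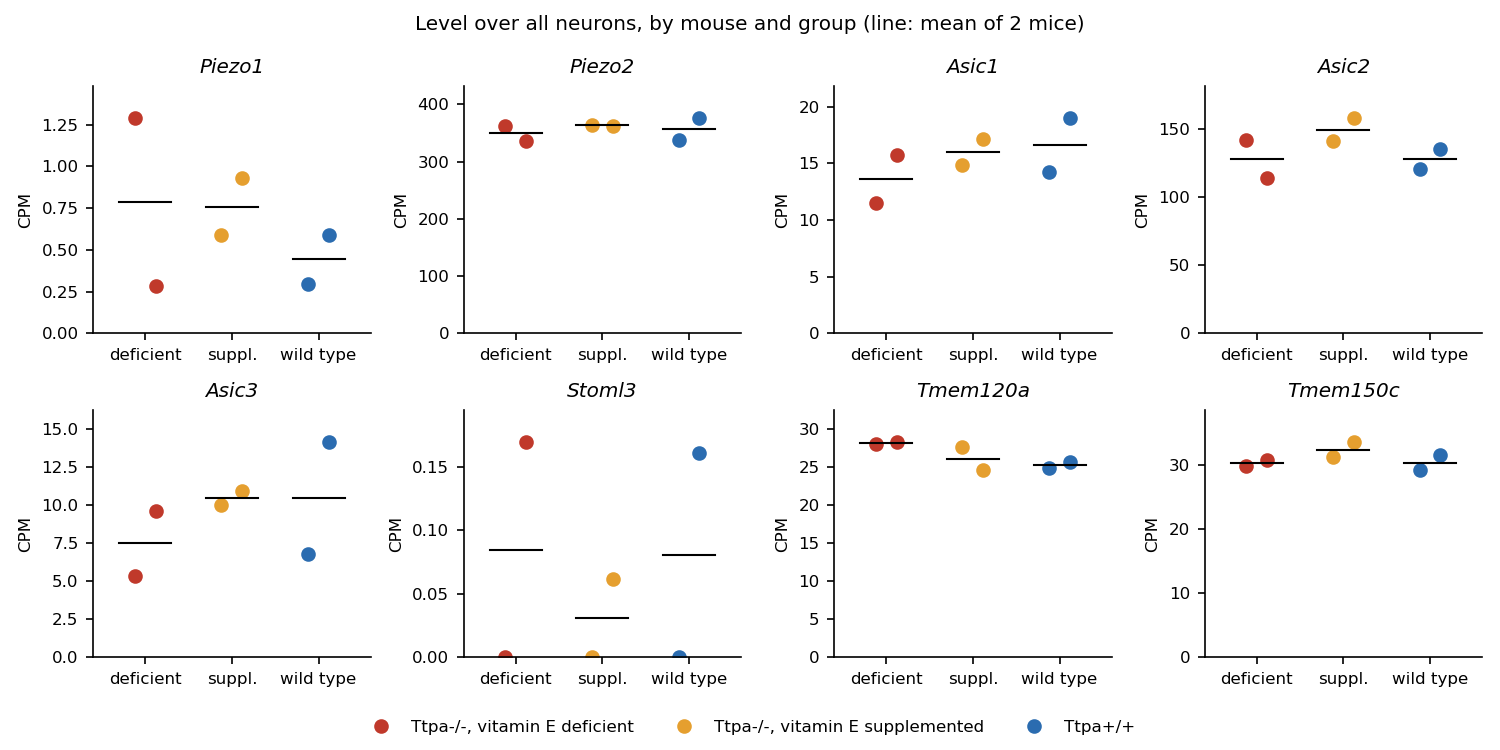
Level over all neurons (CPM, linear axes from 0) of the 8 genes in each of the 6 mice, by group. Each point is 1 mouse and the line is the mean of the 2 mice of a group. The 2 mice of a group are often as far apart as the groups, as for Asic3 in the wild type at 6.80 and 14.2.

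By test, 0 of the 7 genes that passed the low-count filter were called at an adjusted p of 0.05 in any of 4 contrasts (the 3 pairs of groups, and both Ttpa-/- groups against wild type). The background was 0.0% of 13402 genes in each, and the number of all genes with an unadjusted p under 0.05 was 521 for deficient against wild type, 511 for supplemented against wild type, 337 for deficient against supplemented and 582 for both against wild type, with 0 of the 7 in each. DESeq2 and limma-voom called 0 of the 7 as well; of all 13402 genes DESeq2 called 2, 11, 0 and 10 in the same order, and limma-voom 0 in each. The median log2 difference of the 7 was -0.0161, 0.00959, -0.0727 and 0.0248, in the order in which the contrasts are given, beside -0.00827, -0.0151, -0.00362 and -0.0113 over all genes. In counts simulated from these mice, edgeR called 23 of 50 genes changed 1.5-fold and 48 of 50 changed 2-fold in the deficient against wild-type contrast, among genes with a mean of 50 UMIs or more a mouse. A 1.5-fold difference was thus often not detectable, and Piezo1 had fewer UMIs than any gene changed in that simulation. The simulation raised 50 genes each by 1.5, 2, 4 and 8-fold at once, with the spread taken from its trend over genes. With that many changed genes the adjusted limit is easier to pass than in the real counts. The detected shares may therefore be too high for these data. Of 13202 unchanged genes 5 were called. The edgeR p-values between groups use the spread between the 2 mice of a group, moderated by the spread of all genes. They therefore rest in large part on other genes.

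**Figure D4:**
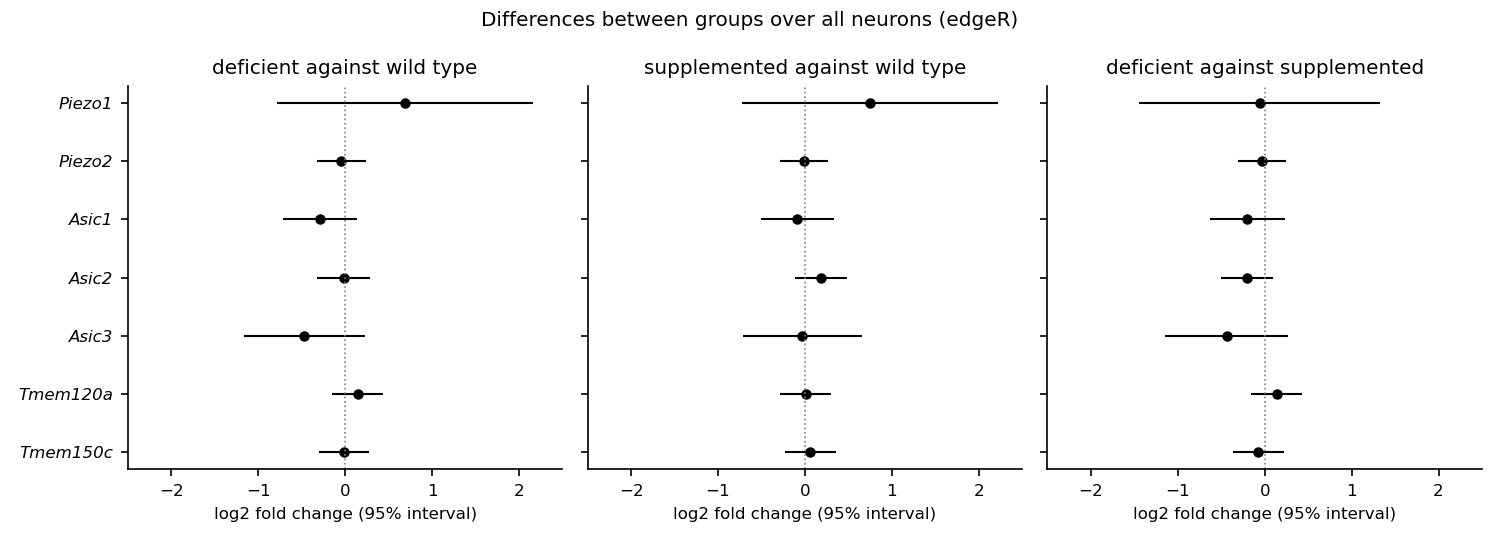
Log2 fold change over all neurons with its 95% interval (edgeR quasi-likelihood fit) for the 7 genes that passed the low-count filter, in 3 contrasts. Every interval includes 0; that of Piezo2 for deficient against wild type runs from -0.32 to 0.24 and that of Piezo1 from -0.78 to 2.16.

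Within the gated types 44 tests of the 8 genes were made in each contrast, and again 0 passed. They held none of Piezo1 or Stoml3, which did not pass the low-count filter in any type. Asic1 and Asic3 were tested in some types only. The background over all genes and types was 0.0204% for deficient against wild type, 0.0759% for supplemented against wild type, 0.00876% for deficient against supplemented and 0.0671% for both Ttpa-/- groups against wild type. At an unadjusted p under 0.05 there were 1, 1, 4 and 2 of 44, beside 3.31%, 4.92%, 3.87% and 4.13% of all tests. No test that the group effect differed between types passed for these genes, again without Piezo1 and Stoml3. The lowest unadjusted p was 0.27, for Asic3 (edgeR), and 0.0115% of 8721 genes passed.

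The lowest p was for Asic3 in the Calb1 gate. The deficient mice had 13.6 and 5.55 CPM there, the supplemented 38.9 and 22.4 and the wild type 16.1 and 34.6. Both deficient mice were below all 4 others. The counts behind them were 3 and 3 UMIs, then 13 and 15, then 8 and 40, in 53 to 129 cells a mouse. The difference of deficient against wild type was -1.84 ± 0.58 (log2 ± SE, unadjusted p = 0.00207, adjusted p = 0.615, edgeR), and of deficient against supplemented -1.84 ± 0.62 (unadjusted p = 0.00371, adjusted p = 0.44), so neither passed. Both Ttpa-/- groups against wild type gave -0.92 ± 0.41 with overlapping mice (adjusted p = 1.0). Leaving out 1 mouse at a time, these 3 differences ranged from -2.34 to -0.998 (lowest in size without mouse 699), from -2.35 to -1.09 (without 657) and from -1.21 to -0.0766. In cluster 9, led by Calb1, Asic3 stood at 40.7 and 24.4 CPM in the deficient mice, 44.6 and 31.5 in the supplemented and 27.5 and 43.1 in the wild type. There the groups overlapped.

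Other low p-values were single cases. In other NF Asic2 had 206 and 134 CPM in the deficient mice, 197 and 196 in the supplemented and 126 and 131 in the wild type, so that all 4 Ttpa-/- mice were above both wild-type mice (both against wild type 0.43 ± 0.19, log2 ± SE, adjusted p = 0.896, and supplemented against wild type 0.55 ± 0.22, adjusted p = 0.476, edgeR). In peptidergic cells Asic2 was lower in both deficient mice (99.0 and 93.9) than in both supplemented (114 and 134), at -0.36 ± 0.17 (adjusted p = 0.999). In Ntrk2 cells Tmem150c had 26.9 and 28.0 CPM in the deficient mice and 48.9 and 50.5 in the supplemented (-0.85 ± 0.36, adjusted p = 1.0). Tmem120a in other NF overlapped between these groups (1.16 ± 0.50, adjusted p = 0.74), and leaving out 1 mouse at a time moved this from 0.0139 to 1.49, the lowest without mouse 657.

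Piezo2 was followed within the types by mouse as well. In Th cells it was 905 and 893 CPM in the deficient mice, 901 and 1008 in the supplemented and 807 and 1028 in the wild type, in overlapping ranges. In Ntrk2 cells it was 674 and 585, then 684 and 620, then 568 and 656. In Pvalb cells, the proprioceptor type, it was 339 and 252, then 275 and 293, then 272 and 285. In each of these 3 types every group overlapped the others. Over all gated types and pairs of groups, the groups stood apart for Piezo2 in 3 cases, none of which passed. With so few mice in a group, groups can stand apart by chance. The share of all genes that did so is not given here. This limit holds for every remark here that all mice of a group were above or below those of another. In peptidergic cells both deficient mice (185 and 189 CPM) were below both supplemented (225 and 222; -0.24 ± 0.16, log2 ± SE, adjusted p = 0.999, edgeR), and in Sst cells likewise (33.4 and 32.4 against 44.3 and 38.3; -0.33 ± 0.28, adjusted p = 1.0). In Mrgpra3 cells both deficient mice (103 and 104) were above both wild-type mice (83.3 and 92.9; 0.20 ± 0.24, adjusted p = 0.993).

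The 3 peptidergic subsets were tested too, after seeing the data, and 0 of 17 tests of the 8 genes passed in each contrast. Piezo1 and Stoml3 were not among those tested, nor was Asic1 in the Tac1-led cells. The background was 0.0169% for deficient against wild type, 0.059% for supplemented against wild type, 0.00843% for deficient against supplemented and 0.0379% for both against wild type. Asic1 in the Bmpr1b-led cells stood at 9.98 and 14.4 CPM in the deficient mice, 18.6 and 20.9 in the supplemented and 31.2 and 31.1 in the wild type, from 3 and 12, 8 and 13, and 20 and 31 UMIs. The 3 groups did not overlap (deficient against wild type -1.25 ± 0.42, log2 ± SE, unadjusted p = 0.00625, adjusted p = 0.999, edgeR). In the Chrna3-led cells the order was the opposite, with 49.6 and 46.3, then 40.4 and 44.1, then 30.4 and 33.8 CPM (0.52 ± 0.25, unadjusted p = 0.0435, adjusted p = 0.998). Neither passed. Over the whole peptidergic gate Asic1 stood at 21.7 and 24.0, then 24.6 and 25.3, then 19.5 and 23.5 CPM. Deficient and wild-type mice overlapped there, and both supplemented mice were above both, by differences that did not pass either (supplemented against wild type 0.16 ± 0.22, adjusted p = 0.999).

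The wider family was read from a list of 59 further genes, mechanically gated, acid-sensing and partner genes, of which 58 were in the table and 44 passed the low-count filter over all neurons. None was called in any contrast (0.0% of all genes), with 4, 4, 1 and 7 of 44 at an unadjusted p under 0.05, beside 3.89%, 3.81%, 2.51% and 4.34% of all genes. The median log2 differences of the list were 0.0804, 0.071, 0.0198 and 0.0458, beside the slightly negative medians of all genes given above. The lowest p was that of Slc9a3r1 (NHERF1, a PDZ scaffold of membrane proteins), which stood at 11.1 and 12.5 CPM in the supplemented mice, 6.74 and 7.62 in the deficient and 5.86 and 7.51 in the wild type. Both supplemented mice were above all 4 others: against wild type 0.79 ± 0.19 (log2 ± SE, adjusted p = 0.602, edgeR), which passed only with no low-count filter (adjusted p = 0.0153), a setting in which 120 of 19333 genes were called, and deficient against supplemented -0.69 ± 0.19 (adjusted p = 1.0).

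Next by p, Mtmr2, a phosphoinositide phosphatase, was at 31.4 and 32.4 CPM in the deficient mice, 31.3 and 35.2 in the supplemented and 27.0 and 24.0 in the wild type (both Ttpa-/- groups against wild type 0.33 ± 0.12, log2 ± SE, adjusted p = 1.0, edgeR). Trpc6, a cation channel, was at 2.41 against 1.39 CPM in deficient and wild type on group means (0.77 ± 0.31, adjusted p = 0.992). Tmc7 was at 8.94 and 12.4 CPM in the deficient mice, 8.29 and 12.5 in the supplemented and 16.2 and 12.3 in the wild type. Its ranges overlapped, with means of 10.5 in both Ttpa-/- groups and 14.2 in wild type (-0.44 ± 0.19, adjusted p = 1.0). Others named by rank were Pkd1 (-0.33) and the mechanosensitive potassium channel gene Kcnk2 (-0.30) for deficient against wild type, Kcnk4 (-0.47) for supplemented against wild type, Stom (0.37) and Kcnk3 (-0.34) for deficient against supplemented, and Tmc5 (-0.81) for both against wild type, all log2 differences that did not pass. Leaving out 1 mouse brought each of these closer to 0 by over 1.5 times, to -0.163 for Pkd1, -0.146 for Kcnk2, -0.117 for Kcnk4, 0.0668 for Stom, -0.188 for Kcnk3 and -0.102 for Tmc5. Across types, 161 of 243 tests of the list passed (66.3%), beside 62.9% of all genes, and within types it was 0 of 174 in each contrast.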

How the data were processed

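The authors deposited 1 table of UMI counts, 27998 genes by 21685 cells; per the submitters' processing notes the tools were Cell Ranger 2.0.1 (build mm10), bcl2fastq 2.17.1.14, Seurat 2.3.0 and limma 3.32.10, and per the labels' protocols from 3' v2 droplet libraries. Their cell selection and strand use are not given in the sources used here. Cells were mapped to mice by the number after the hyphen. The 8 genes, the wider list and the marker sets were chosen with earlier results of these data known.

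A cell was used if it had at least 500 genes and no more than 20% of UMIs from mitochondrial genes (21658). Doublets were scored by mouse with Scrublet in scanpy 1.11.5; since the automatic threshold marked 45, the top 0.8% per 1000 cells were removed (634), leaving 21024. A neuron had UMIs of at least 5 of 10 pan-neuronal markers. Gates used the mean z-score of log counts, capped at 4, over each marker set, with a score of at least 0.75 and a lead of 0.5 over the next set. Markers in under 0.1% of cells were left out. The 3 large-neuron sets also needed a score of 0.25 for the large myelinated set. Other limits were tried; these were chosen, and the Tac1, Chrna3 and Bmpr1b sets merged as peptidergic, after marker scores and clusters were seen. A set with Foxp2 and Cdh8 as its usable markers (332 cells) competed for cells but is not described, and 7240 cells fitted no gate.

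UMI counts were summed per mouse and tested with edgeR 4.0.16 (TMM, filterByExpr, quasi-likelihood, 3 group means, 3 residual degrees of freedom; 2 mice a group). Types were compared with the mouse as a block, since types of 1 mouse share its library. Counts of mice in which a type was higher or lower were taken against the pooled UMIs of the other types. Groups share no replicate numbers. SE is the fold change over the root of F. The 8 genes were always named, of the wider list the 2 of lowest p per direction and contrast (1 is not reported here), and the 3 genes of highest correlation. The script was checked on simulated data. Alternatives were RLE scaling, no filter, DESeq2 1.42.0, limma-voom (limma 3.58.1), a sex term, each mouse left out, doublets kept, 1000 genes and 10% mitochondrial, thinned sums, all cells, clusters (2000 variable genes, 30 components, resolution 1) and a stricter gate. Positions are from GENCODE M21 (GRCm38, equal to mm10).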

Additional observations from a re-analysis of the deposited data

How the results depend on the processing

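The count of the 8 genes called between groups was 0 under every alternative run, over all neurons and within types, and across types it ranged from 29 to 41. The number of tests and the share of all genes that passed change with the setting, so this range is no mark of the 8 genes. In the main fit it was 33 of 54 beside 62.9% of all tests, and against the pooled other types 37 of 55 beside 57.1%. Without the mouse as a block (no replicate block) 32 of 54 tests across types passed in place of 33. The share of all genes in that setting is not given here. Asic2 in other NF (0.24, adjusted p = 0.0529, edgeR) was the call lost. No paired analysis was possible because the groups share no replicate numbers; the fit with sex as a term, which sets the female and the male of each group apart, is one of the alternatives and gave 0 calls of the 8 genes. Of the alternatives of single group differences 32 changed sign, and 1 call was gained. With the stricter cell filter Tmem150c for deficient against wild type became 0.00498, Piezo2 for supplemented against wild type 0.043 and for both against wild type 0.0144. Thinned sums gave 0.00585 for Piezo2 and 0.0266 for Asic3 in supplemented against wild type, where limma-voom gave Asic3 0.0548 and a sex term 0.069. DESeq2 gave Piezo1 0.0232 for deficient against supplemented.

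Leaving out each mouse in turn, deficient against wild type ranged from -0.648 to 1.48 for Piezo1, -0.113 to 0.0332 for Piezo2, -0.165 to 0.123 for Asic2, -0.993 to 0.157 for Asic3 and -0.0628 to 0.0452 for Tmem150c. Supplemented against wild type ranged from -0.0816 to 0.0652 for Piezo2, -0.274 to 0.134 for Asic1, -0.458 to 0.593 for Asic3, -0.0623 to 0.0749 for Tmem120a and -0.00907 to 0.12 for Tmem150c. Deficient against supplemented ranged from -1.39 to 0.733 for Piezo1, -0.0685 to 0.00716 for Piezo2 and -0.469 to 0.0166 for Asic1. Both against wild type ranged from -0.0975 to 0.0492 for Piezo2, -0.374 to 0.0343 for Asic1, -0.676 to 0.375 for Asic3 and -0.027 to 0.0811 for Tmem150c. A lone mouse left in a group was assumed to vary like the others.

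Across types, against the pooled others, Piezo2 became -0.294 in Mrgprd and -0.0186 in Calb1, and Asic2 -0.0151 in Mrgpra3. Tmem120a became 0.00185 in Ntrk2 and Tmem150c 0.05001 in Mrgprd. Asic1 and Asic3 changed sign too in some types, from above the mean of the other types to below the pooled others. Asic1 became -0.903 in Th, -0.566 in other NF and -0.0138 in Calb1, and Asic3 -0.619 in Pvalb and -1.88 in Ntrk2. In Th the Asic1 call went from higher to lower (adjusted p = 8.79e-06 against the pooled others, edgeR). The sign stayed in Pvalb, peptidergic, Mrgprd and Ntrk2 for Asic1, and in peptidergic, other NF, Calb1, Mrgprd and Th for Asic3. With no low-count filter Asic2 became -0.0251 in Mrgpra3 and Tmem150c 0.0182 in Mrgprd, and with a stricter gate Tmem150c 0.147 there. In Mrgpra3, leaving out mice gave -0.025 to 0.0583 for Asic2 and -0.0607 to 0.2002 for Tmem120a. The call for Tmem150c in Pvalb was lost without mouse 654, 670, 671 or 699, and that for Asic2 in other NF without 654 or 670. The cause of these changes was not tested. Depth limits Piezo1 and Stoml3 throughout.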
